A study of Rattus norvegicus with 9 samples.

Results

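The 10 genes described here encode carriers that move proteins and RNA through the nuclear pore: Ipo4, Ipo5, Ipo7, Ipo8, Ipo9, Ipo11, Ipo13, Kpnb1, Tnpo1 and Xpo1. Ipo4 was chosen on its low value with siLhx4 in the authors' deposited table. The other 9 were chosen by name, as relatives of Ipo4, but with earlier results of these data known. All 10 were among the 26854 genes of both tables and among the 14876 with an adjusted p, so a filter on low means removed none. RNA came from primary cultures of pinealocytes, the melatonin-making cells of the pineal gland, from adult Sprague-Dawley rats. Short interfering RNA (siRNA) was given at 40 nM, the medium was renewed after 24 h, and cells were frozen on day 3. There were 9 libraries, 3 each for a control siRNA with no target (siNT), the siRNA to Lhx4 (siLhx4) and the siRNA to Bsx (siBsx), where both targets are homeodomain transcription factors. Each target was hit by 1 siRNA, so an effect of the siRNA sequence and an effect of the lost target cannot be told apart. The labels do not say that replicates were separate cultures or animals. The p-values rest on DESeq2 estimates of the spread between these libraries, which borrow from other genes.

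These carriers belong to the importin β family, whose members bind cargo, pass the pore by touching the lining proteins of its channel, and are loaded or emptied by the small GTPase Ran. Importins release cargo when they meet Ran-GTP inside the nucleus, and exportins take cargo on together with Ran-GTP and let go in the cytoplasm. Transcription factors, histones and ribosomal proteins reach the nucleus by this route, and each carrier has its own cargo set with overlaps between relatives. The cargoes given here for single carriers are known mainly from human proteins.

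Lhx4 and Bsx set the frame for reading the groups. Lhx4 stood at 18963, 18331 and 19156 normalized counts (read counts scaled by each library's size factor) in siNT replicates 1 to 3 and at 3420, 3634 and 3551 in siLhx4 replicates 1 to 3. The groups did not overlap, with means of 18816 ± 432 and 3535 ± 108 (SD, n = 3 each). In the authors' deposited table for siBsx, Bsx stood at 20.7% of siNT, and in that for siLhx4 it stood at 55.2%, so the siLhx4 libraries were low in both factors. Size factors of the siNT and siLhx4 libraries lay between 0.761 and 1.46. Values per library of the 10 carriers were not analysed here, so their levels are the group means that follow from the authors' deposited tables, and their errors are DESeq2 standard errors (SE).

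Among the 10 carriers, low levels were spread over different genes in the 2 knockdowns. With siLhx4, Ipo4 stood at 26.0% of its control level and Kpnb1, the central importin β1, fell by 50.4%. With siBsx, both of these were near control, and it was Ipo5 that fell by 48.6%. The other 7 carriers stayed within -9.49% and 6.18% of siNT in the authors' deposited tables, with Xpo1 (lower with siLhx4) and Ipo7 (lower with siBsx) past the test.

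**Figure D1:**
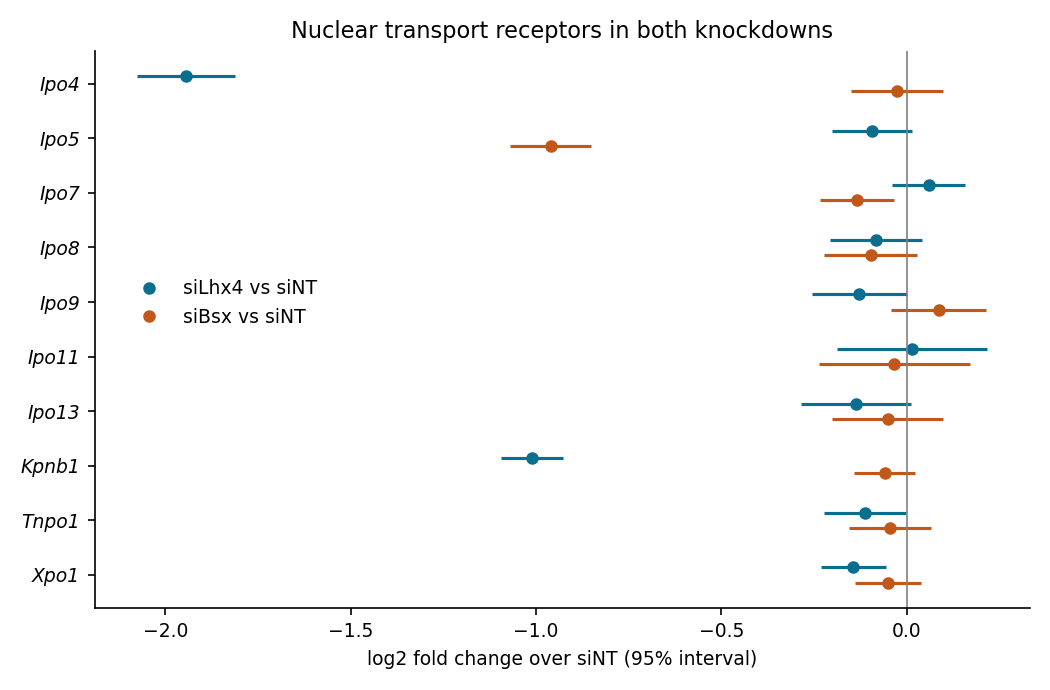
Log2 fold change over siNT (horizontal axis) of the 10 carriers with siLhx4 and with siBsx, as points with 95% intervals. Ipo4 and Kpnb1 lie far left with siLhx4 at -1.94 and -1.01, Ipo5 lies far left with siBsx at -0.96, and all other points lie between -0.14 and 0.09.

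Ipo4 imports histones H3 and H4 and the vitamin D receptor. Its group mean computed from the authors' deposited tables was 3537 normalized counts in siNT, 919 in siLhx4 and 3476 in siBsx. The siLhx4 group stood at 26.0% of siNT, and only the siBsx group was close to the control. The log2 fold change with siLhx4 was -1.94 ± 0.067 (SE) in the authors' deposited table, and 2 of the 14876 genes tested there lay lower. Because this value chose the gene, it is given without a test. With siBsx the log2 fold change of Ipo4 in the authors' deposited table was -0.03 ± 0.064 (SE; adjusted p = 0.858, DESeq2), with a 95% interval from -9.90% to 7.08%. The siBsx libraries were not used to choose Ipo4, but that comparison rests on the same siNT libraries. Between the knockdowns the Ipo4 difference was 1.92 ± 0.068 on the log2 scale (siBsx minus siLhx4), also given without a test.

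The upstream window of Ipo4, and of Ipo5 described next, is shown because Lhx4 and Bsx are homeodomain proteins, and many of this class bind DNA with a TAATTA core. Sequences are from RefSeq on rat build GRCr8, while the count tables were made on rn6, and no value of the tables is placed on these coordinates. Each is the 250 bases before the annotated start, 5′ to 3′ on the gene's strand, in lower case because neither holds TAATTA.
Ipo4, chr15:33097242-33097491, minus strand: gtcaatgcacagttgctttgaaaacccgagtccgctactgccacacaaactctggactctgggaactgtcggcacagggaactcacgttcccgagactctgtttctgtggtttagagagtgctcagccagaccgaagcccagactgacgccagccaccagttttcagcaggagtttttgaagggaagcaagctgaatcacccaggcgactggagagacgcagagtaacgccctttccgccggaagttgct
Ipo5, chr15:104411998-104412247, plus strand: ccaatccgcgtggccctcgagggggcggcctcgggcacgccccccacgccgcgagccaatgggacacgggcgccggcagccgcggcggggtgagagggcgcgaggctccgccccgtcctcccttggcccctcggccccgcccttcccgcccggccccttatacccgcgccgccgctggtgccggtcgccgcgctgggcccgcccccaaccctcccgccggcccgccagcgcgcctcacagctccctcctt

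TAATTA reads the same on both strands. Over windows of 300 bases (250 before to 50 after the start), 9 of the 10 carriers had 11 windows, and 1 window, that of Ipo7, held the motif; no window was at hand for Kpnb1. Among all 33469 rat windows of this length, 5.36% held it. The Ipo7 match began 235 bases before the start, with the motif in capitals below. A match is only a description of the letters, and no match says nothing about where either factor binds.
Ipo7, chr1:173497225-173497254, plus strand: agaagattctttTAATTAtacagttagtaa

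Kpnb1 carries classical import cargo, which it binds through importin α adaptors. Its group mean computed from the authors' deposited tables was 11659 normalized counts in siNT, 5782 in siLhx4 and 11188 in siBsx. It therefore stood near control in siBsx and at 49.6% of siNT in siLhx4. In the authors' deposited table Kpnb1 fell by 1.01 ± 0.043 with siLhx4 (log2, SE; adjusted p = 7.78e-121, DESeq2), with a 95% interval from -53.2% to -47.5%. With siBsx it was at -0.06 ± 0.042 in the authors' deposited table (log2, SE; adjusted p = 0.395, DESeq2). The difference between the knockdowns was 0.95 ± 0.043 (siBsx minus siLhx4, log2, SE), past a Wald test rebuilt from both tables (adjusted p = 3.01e-106). By its unadjusted p, Kpnb1 ranked 4 among the genes of the siLhx4 table. The Ipo4 value with siLhx4 was lower than that of Kpnb1 by 0.93 on the log2 scale. This difference is given without a test, since the Ipo4 value chose the gene.

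Ipo5, also called RanBP5, imports ribosomal proteins and core histones. Its group mean computed from the authors' deposited tables was 7742 normalized counts in siNT, 7255 in siLhx4 and 3977 in siBsx. Here siBsx was the low group. In the authors' deposited table Ipo5 fell by 0.96 ± 0.056 with siBsx (log2, SE; adjusted p = 2.6e-63, DESeq2), with a 95% interval from -52.4% to -44.6%. With siLhx4 it was at -0.09 ± 0.055 in the authors' deposited table (log2, SE; adjusted p = 0.260, DESeq2). The siBsx minus siLhx4 difference was -0.87 ± 0.056 (log2, SE; rebuilt Wald test, adjusted p = 1.31e-51). By unadjusted p, Ipo5 ranked 25 in the siBsx table, and 126 of the genes tested had a lower log2 fold change there.

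**Figure D2:**
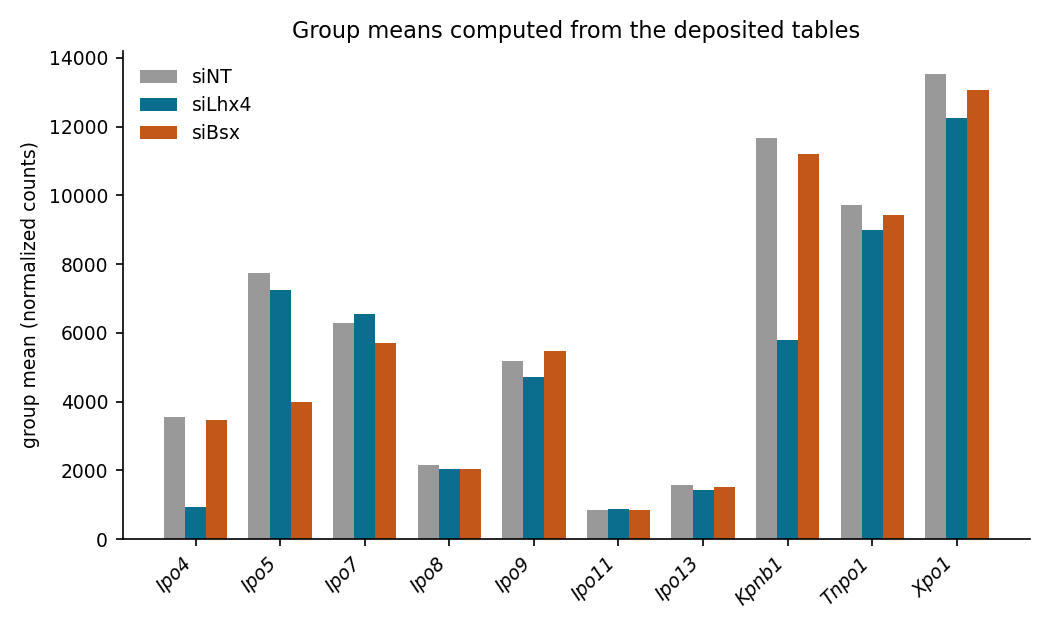
Group means in normalized counts (vertical axis, from 0) of the 10 carriers in siNT, siLhx4 and siBsx, computed from the deposited means and fold changes and therefore without an error bar. The siLhx4 bar is the low one for Ipo4 (919) and Kpnb1 (5782), and the siBsx bar for Ipo5 (3977). Heights should not be compared between genes, since they are not per length.

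Xpo1, or CRM1, exports proteins that carry a leucine-rich signal. In the authors' deposited table it fell by 9.49% with siLhx4 (-0.14 ± 0.045, log2 scale, SE; adjusted p = 0.0112, DESeq2) and was at -3.41% with siBsx (adjusted p = 0.540, DESeq2). The difference between the knockdowns did not pass (0.09 ± 0.045, log2, SE; rebuilt Wald test, adjusted p = 0.127). The 95% interval of that difference ran from 0.0052 to 0.18 before adjustment. Its group means from highest to lowest were siNT, siBsx and siLhx4, and of the 3 pairs only siNT and siLhx4 passed the adjusted threshold.

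Ipo7 imports ribosomal proteins and, together with Kpnb1, the linker histone H1. In the authors' deposited table it fell by 8.89% with siBsx (adjusted p = 0.0470, DESeq2) and was at 4.23% above siNT with siLhx4 (adjusted p = 0.488, DESeq2). The difference between the knockdowns passed at -0.19 ± 0.051 (siBsx minus siLhx4, log2, SE; rebuilt Wald test, adjusted p = 0.00108). Ipo9, which imports histones H2A and H2B and actin, was at -8.47% with siLhx4 and at 6.18% with siBsx in the authors' deposited table, and neither passed (adjusted p = 0.180 and 0.435, DESeq2). Its siBsx level was above its siLhx4 level by 0.21 ± 0.065 (log2, SE; rebuilt Wald test, adjusted p = 0.00713). Reading the Wald statistics against t with 6 degrees of freedom took away the calls of Xpo1, Ipo7 and Ipo9, at adjusted p-values from 0.0749 to 0.224, while those of Kpnb1 and Ipo5 stood. Without the filter on low means, Ipo7 also missed the threshold with siBsx (adjusted p = 0.0836).

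The other 4 carriers passed in no comparison. Ipo8, the near relative of Ipo7, was at -5.63% with siLhx4 and -6.52% with siBsx in the authors' deposited table. Ipo11, which imports a ubiquitin-conjugating enzyme, was at 1.04% and -2.27% in the authors' deposited table. Ipo13, a carrier that works in both directions, was at -9.11% and -3.51%, and Tnpo1, the transportin that imports hnRNP A1, at -7.50% and -3.06% in the authors' deposited table. The 95% intervals of these 4 with siLhx4 reached down to between -18.0% for Ipo13 and -12.2% for Ipo11. At the SE of these genes, a change with siLhx4 had to reach -9.79% for Tnpo1 and -17.1% for Ipo11 to pass, so smaller falls were not detectable.

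Of the relatives, Kpnb1 and Xpo1 fell past the threshold with siLhx4, and Ipo5 and Ipo7 with siBsx. Falls too small to pass were not detectable. With siLhx4, 2 of the 9 carriers other than Ipo4 (22.2%) passed DESeq2's adjusted p of 0.05, both lower, where 17.7% of all genes tested passed, 9.59% lower and 8.07% higher. With siBsx, 2 of 10 (20%) passed, both lower, where 17.2% of all genes passed, 9.61% lower and 7.59% higher. The shares passing in either direction lie near the background. All of these calls were lower, a larger share than the 9.59% and 9.61% of all genes. Counts this small are no result about the carriers as a set. Between the knockdowns, 4 of 9 (44.4%) passed, 2 in each direction, where 22.7% of all genes passed, 11.9% lower and 10.8% higher. The median log2 fold change with siLhx4 over the 9 was -0.11, 7 of them below 0, against a median of 0.00 and 49.4% below 0 among all genes tested. With siBsx the median over all 10 was -0.05, 9 of them below 0, against 0.00 and 49.9%. Both comparisons share the siNT libraries. Summed over the 10 carriers, the group means computed from the authors' deposited tables were 62223 normalized counts in siNT, 50794 in siLhx4 (81.6%) and 56701 in siBsx (91.1%). Ipo4, Kpnb1 and Ipo5 together stood at 60.8% with siLhx4 and 81.3% with siBsx, and the other 7 at 93.8% and 96.9%. These 3 are the carriers with the largest falls, so this split was fixed by the grouping and is only a description. Genes with high counts weigh most in such sums.

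**Figure D3:**
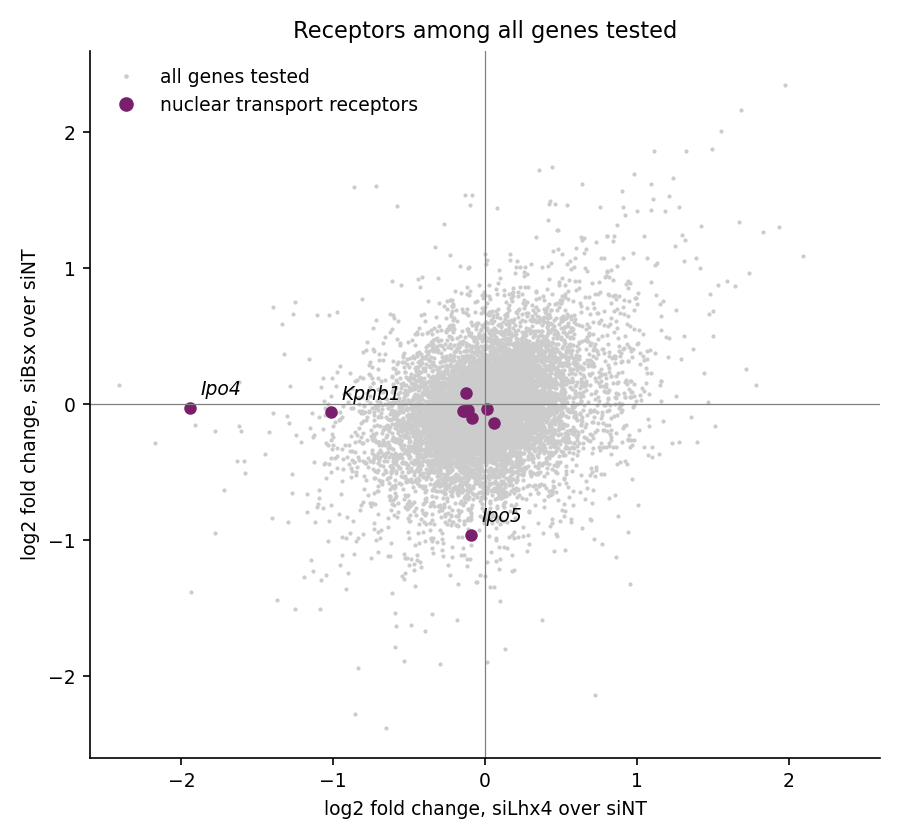
Log2 fold change of each of the 14876 genes tested with siLhx4 (horizontal) and with siBsx (vertical), with the 10 carriers in purple. Both axes share the siNT libraries, so their joint slope is not read. Ipo4 and Kpnb1 lie to the left on the horizontal line, Ipo5 lies below the centre on the vertical line, and the other 7 lie close to the origin.

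The dispersion solved from the siBsx table corresponds to a coefficient of variation of 5.12% for Ipo4, 3.46% for Kpnb1 and 4.55% for Ipo5. Genes with a mean within 1.5-fold of each had medians of 5.16%, 4.25% and 4.65%. Ipo9 at 5.38% and Tnpo1 at 4.72% lay above the medians of their like, 4.75% and 4.35%. These are DESeq2 values, which borrow from other genes, and do not show whether 1 library stood apart.

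Other parts of the transport machinery were read from 6 lists of 76 genes, of which 72 were tested. Over these lists, 3 rose and 8 fell with siLhx4 (15.3%) and 6 rose and 6 fell with siBsx (16.7%), shares near those of all genes. Of all genes tested, 17.7% passed with siLhx4 and 17.2% with siBsx. Of 10 further importin β relatives, 2 rose and 2 fell with siLhx4, a larger share than among all genes, and 1 fell with siBsx. Counts in single lists this small are no result about a list. Tnpo2, the close relative of Tnpo1, fell by 15.2% with siLhx4 and fell by 26.4% with siBsx in the authors' deposited table (adjusted p = 0.00109 and 2.51e-11, DESeq2). Xpo5, which exports microRNA precursors, fell by 19.3% with siLhx4 in the authors' deposited table (adjusted p = 6.48e-05, DESeq2). Ranbp6, a close relative of Ipo5, rose by 25.4% with siLhx4 in the authors' deposited table (adjusted p = 0.00173, DESeq2), and its siBsx value of 12.9% did not pass.

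Importin α adaptors link cargo to Kpnb1. Of 7 tested members of their list, 1 rose and 2 fell with siLhx4, and 1 rose and 1 fell with siBsx. The shares passing among all genes tested were 17.7% and 17.2%, and counts out of 7 are no result about the list. Kpna2 rose 2.09-fold with siBsx in the authors' deposited table (1.06 ± 0.079, log2 scale, SE; adjusted p = 3.34e-38, DESeq2), whereas its 12.1% with siLhx4 did not pass (adjusted p = 0.154, DESeq2). The difference between the knockdowns was 0.90 ± 0.079 (siBsx minus siLhx4, log2, SE; rebuilt Wald test, adjusted p = 8.77e-28). Kpna1 fell by 27.1% with siLhx4 and fell by 31.8% with siBsx in the authors' deposited table, and Kpna6 fell by 16.5% with siLhx4. The list medians were -0.02 and -0.03 on the log2 scale, close to those of all genes.

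The Ran cycle supplies the direction of transport. With siLhx4, 0 of its 7 tested genes passed DESeq2's adjusted p, and 1 had an unadjusted p under 0.05, namely Ranbp2 at -7.32% in the authors' deposited table (adjusted p = 0.130, DESeq2). With siBsx 1 rose and 2 fell. The shares passing among all genes tested were 17.7% with siLhx4 and 17.2% with siBsx. Nutf2, which brings Ran-GDP into the nucleus, fell by 35.7% with siBsx in the authors' deposited table (adjusted p = 1.33e-12, DESeq2), and Rangap1, which triggers GTP hydrolysis by Ran in the cytoplasm, fell by 15.5% (adjusted p = 1.41e-05, DESeq2). Ranbp2, on the outer filaments of the pore, rose by 9.93% with siBsx in the authors' deposited table (adjusted p = 0.0461, DESeq2).

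For the lists that follow, the shares passing among all genes tested were again 17.7% with siLhx4 and 17.2% with siBsx. Of 28 nucleoporins, which build the pore, 4 fell with siLhx4, and 2 rose and 1 fell with siBsx. Nup62, which lines the central channel, fell by 28.2% with siLhx4, the scaffold protein Nup93 fell by 27.1% and Ahctf1 fell by 11.4% in the authors' deposited table (adjusted p = 4.1e-08, 1.94e-05 and 0.00809, DESeq2). With siBsx, Nup62 and Nup93 were at 2.38% and -2.78% in the authors' deposited table and did not pass. Both differences between the knockdowns passed the rebuilt Wald test (adjusted p = 2.32e-09 and 0.000117). Of 12 mRNA export genes, 0 passed DESeq2's adjusted p with siLhx4 (2 at an unadjusted p under 0.05), and 2 rose and 1 fell with siBsx. The export helicase Ddx19a fell by 23.7% in the authors' deposited table (adjusted p = 3.38e-09, DESeq2), Thoc2 rose by 17.6% and the helicase Ddx39b rose by 10.8%. Chaperones and the acetyltransferase that handle histones H3 and H4, the cargo of Ipo4, had 0 of 8 past DESeq2's adjusted p in either comparison, with 1 and 0 at an unadjusted p under 0.05. Their list medians were 0.01 with siLhx4 and -0.12 with siBsx on the log2 scale. On the log2 scale the acetyltransferase Hat1 was at 0.00 and -0.13, and the chaperone Asf1a at 0.29 and 0.05, in the authors' deposited table. Chaf1b, a subunit of the histone chaperone CAF-1, was at 0.76 ± 0.42 and -0.34 ± 0.44 on that scale in the authors' deposited table (SE; adjusted p = 0.224 and 0.701, DESeq2). Its siBsx minus siLhx4 difference passed at -1.10 ± 0.43 (log2, SE; rebuilt Wald test, adjusted p = 0.0474), the only 1 of the 8 to do so.

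**Figure D4:**
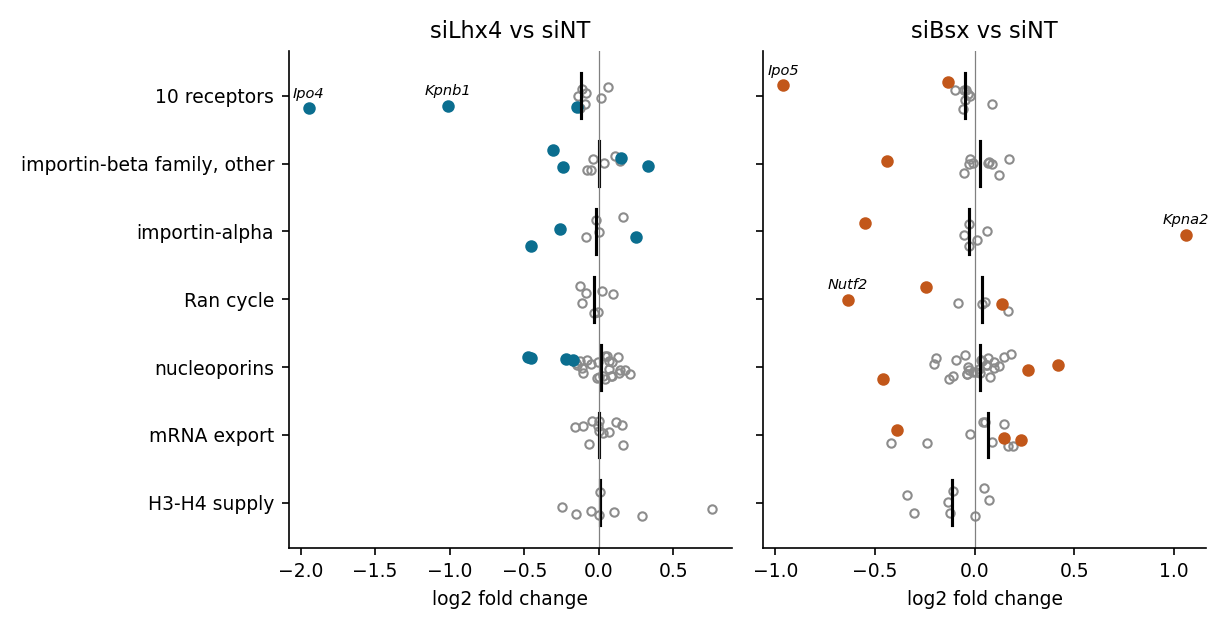
Each point is the log2 fold change (horizontal axis) of 1 gene, for the 10 carriers and the tested genes of 6 transport lists with siLhx4 (left) and siBsx (right). Filled points passed an adjusted p of 0.05, open points did not, and black bars are medians. List medians lie between -0.12 and 0.07. Labelled points are Ipo4 and Kpnb1 with siLhx4, and Ipo5, Kpna2 and Nutf2 with siBsx. The open point of Chaf1b with siLhx4 lies at 0.76. Unlabelled genes also stand away from their medians. Among them are Kpna1 (-0.46 with siLhx4, -0.55 with siBsx), Nup62 (-0.48 with siLhx4) and Tnpo2 (-0.44 with siBsx).

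The genes next to Ipo4 were read as a description. Ipo4 was chosen for its low siLhx4 value, so nearly all genes stood closer to siNT, whether or not they were neighbours. Of the 5 nearest genes on each side in the RefSeq order, 8 were tested, and with siLhx4 0 of them passed DESeq2's adjusted p, and 1 had an unadjusted p under 0.05. Their log2 fold changes in the authors' deposited table lay between -0.34 for Rec8, the meiotic cohesin on one side, and 0.43 for Irf9. Tm9sf1, the next gene on the other side, was at -0.19 ± 0.12 in the authors' deposited table (SE; adjusted p = 0.310, DESeq2). With siBsx only Rnf31 passed among these 8, at 31.6% above siNT in the authors' deposited table (adjusted p = 0.000459, DESeq2). Next to Kpnb1, examined after its value was seen, 1 of 8 tested neighbours passed with siLhx4, the aminopeptidase gene Npepps, and 4 had an unadjusted p under 0.05. It fell by 15.4% with siLhx4 and fell by 18.9% with siBsx in the authors' deposited table. With siBsx 3 of the 8 passed, since Mrpl45 also fell by 14.4% and Lrrc46 rose by 81.1% in the authors' deposited table. Next to Ipo5, likewise examined after its value was seen, 2 neighbours were tested. Farp1 rose by 40.1% with siLhx4 in the authors' deposited table (adjusted p = 0.000116, DESeq2), and neither passed with siBsx. Among all genes tested, 17.7% passed with siLhx4 and 17.2% with siBsx, so these small counts are no result about the neighbourhoods.

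**Figure D5:**
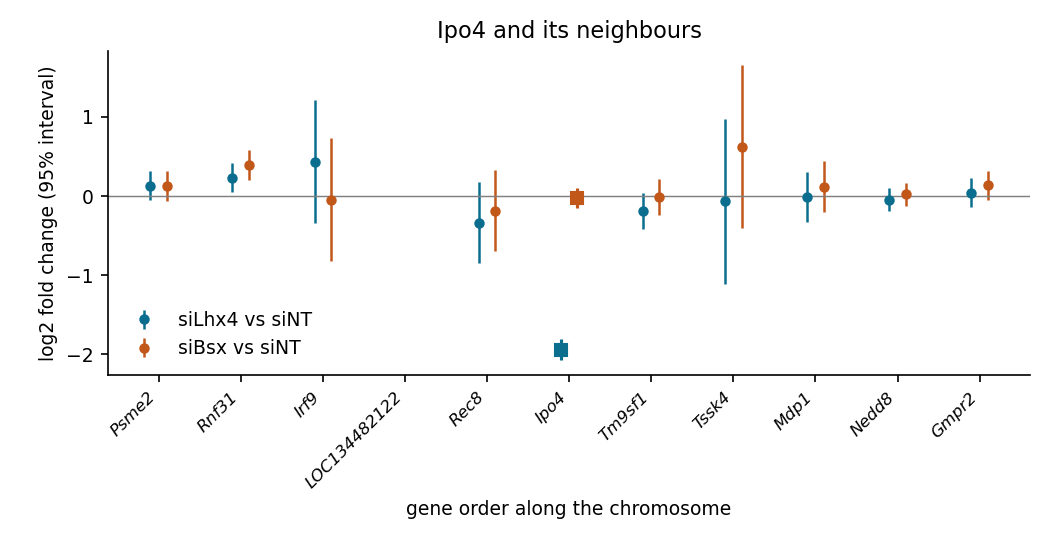
Points and 95% intervals of the log2 fold change (vertical axis) of Ipo4 (squares) and its nearest genes in chromosome order (circles) with siLhx4 and siBsx. The siLhx4 square of Ipo4, the value that chose the gene, lies at -1.94, and its neighbours lie between -0.34 and 0.43. That gap follows from the choice and is not a result. The pseudogene without a point was not analysed here.

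By Euclidean distance in the pair of log2 fold changes, over 13625 genes with a mean of at least 50, the gene nearest to Ipo4 was the neurturin co-receptor Gfra2 at 0.13. The next were the cadherin Cdh9 at 0.24, the matrix metalloproteinase Mmp3 at 0.35, the surface protein Cd200 at 0.38 and Lhx4 itself at 0.50. Of these, Gfra2, Cdh9 and Cd200 had means of 84.9 to 151 normalized counts in the authors' deposited table for siLhx4, against 2228 for Ipo4. The SEs with siLhx4 and siBsx were 0.23 and 0.22 for Gfra2 and 0.33 and 0.31 for Cdh9. These exceed the distances of both genes, so their order is not settled. The siLhx4 value that chose Ipo4 enters every distance.

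Some markers of pinealocytes and of other cell types differed between groups. Pinealocyte markers were high, and 6 of 9 fell with siLhx4, while 4 rose and 4 fell with siBsx. The summed level of these 9, computed from the authors' deposited tables, was 561577 normalized counts in siNT, 433927 in siLhx4 and 529512 in siBsx. Tph1 made up 81.1% of the siNT sum, and without it the other 8 summed to 106097, 85773 and 114370. Of the tested markers of other cell types, 2 of 5 for astrocytes, 2 of 5 for fibroblasts, 1 of 3 for mural cells and 1 of 5 for endothelium rose with siLhx4. For Schwann cells 0 of 3 passed, and for microglia 0 of 1. Among all genes tested, 8.07% rose and 9.59% fell with siLhx4, and 7.59% rose and 9.61% fell with siBsx. With siBsx, 3 astrocyte, 2 fibroblast and 2 mural markers fell, and 0 endothelial, microglial or Schwann cell markers passed. The 6 fibroblast markers summed to 1528, 2132 and 1209, and the 8 astrocyte markers to 6002, 7051 and 4460. The 5 mural markers summed to 6749, 9577 and 3335. Myh11 made up 91.9% of their siNT sum, and the other 4 summed to 548, 645 and 381. The 5 endothelial ones summed to 745, 1018 and 764. The 6 microglial markers summed to 274, 214 and 223, with 5 of 6 below a mean of 20, and the 5 Schwann cell markers to 539, 603 and 518. Defining markers such as Gfap of astrocytes, Acta2 of mural cells and Aif1 of microglia had means of only 10.2, 13.8 and 12.6 in the authors' deposited table for siLhx4. Lum, a fibroblast marker, was listed at 0 in the authors' deposited table for siBsx, and no other marker was at 0 in either table. Their part in the carrier values was not tested, and in bulk RNA fewer cells of a type and less RNA per cell cannot be told apart.

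RefSeq names 4 pseudogenes after 3 of the carriers (Ipo5, Ipo7 and Ipo11), none of them a row of the tables. How reads that match several places were handled is not stated in the labels, and the levels of these 3 carry that uncertainty.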

How the data were processed

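Ribosome-depleted stranded libraries were made from 3.4 ng of total RNA, per the labels' protocols. The genome build was rn6, and the tools were DESeq2 1.16.1, STAR 2.5.4a, bcl2fastq 2.20.0.422 and featureCounts with Subread 1.5.2, per the submitters' processing notes. The annotation and strand setting are not given in the sources used here. As signal, the authors deposited means of normalized counts over the libraries of each comparison and, for 14 genes, normalized counts per library. The deposited log2 values are the authors' fold changes and, for siBsx, standard errors. The deposited score is the authors' Wald statistic. The deposited p-values are unadjusted and Benjamini-Hochberg adjusted.

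Group means were computed from mean and fold change. For siLhx4, standard errors were computed from the deposited p-value, except where it was not usable, as for the placeholder of Lhx4. There the standard error predicted from the siBsx dispersions was used. Tests against siNT are the authors' DESeq2 Wald tests. For siBsx against siLhx4 a Wald test was rebuilt in which siNT cancels, with dispersions from the siBsx table, adjusted over 14876 genes. The siLhx4 standard errors were 0.960 to 1.00 times those predicted from these dispersions, with a median of 0.991. The upper end of 1.00 was fixed where the predicted value itself was used. Intervals are 95% normal intervals. Python 3.11.15 and scipy 1.17.1 were used. Size factors were read from the 14 genes, whose values became whole reads within 0.0001. Library totals were not used here.

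All 10 carriers are named, as are the 3 genes of smallest p per transport list. The carriers, lists and neighbours were chosen with earlier results of these data known. Ranbp1, Nup50, Ddx19b and Pecam1 were not analysed here. Alternatives changed the threshold, filter, reference distribution, centring, dispersion and shared-control treatment.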

Additional observations from a re-analysis of the deposited data

How the results depend on the processing

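Of 153 values of single carriers other than Ipo4 under the alternatives, 144 kept their direction and side of the threshold, 9 no longer passed and 0 reversed. The 9 belong to Xpo1, Ipo7 and Ipo9. Most of the 153 had not passed as reported and so had no call to lose. The count of carriers past the threshold with siLhx4 went from 2 to 1 at an adjusted p of 0.01 and with t on 6 degrees of freedom as reference. With siBsx it went from 2 to 1 under these settings and without the filter on low means, where Ipo7 had an adjusted p of 0.0836. Between the knockdowns it went from 4 to 2 with the t reference and with standard errors added as if the controls were separate sets. Over all genes, the t reference left 699 of 2626, 795 of 2558 and 1307 of 3380 calls with siLhx4, with siBsx and between the knockdowns, and the added standard errors left 1645 of 3380. Centring on the median of all genes, a minimum mean of 50 and the dispersion of the siLhx4 table moved no carrier across the threshold. Leaving out replicates and an edgeR fit were not run, since values per library of these genes were not analysed here. No paired analysis was possible because the tables carry no values per replicate for these genes.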
